A study of Homo sapiens with 4 samples.

Results

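The promoters described here are those of the zinc finger genes named ZNF followed by a number, with or without 1 further letter. They were chosen by gene symbol alone, without use of any measured value, and 504 of the 20242 promoters in the data met this rule. ChIP-seq (sequencing of DNA recovered by chromatin immunoprecipitation) was carried out on JMJD3c-hESCs, which are SEES-3 human embryonic stem cells (hESCs) carrying a doxycycline (Dox)-inducible transgene for JMJD3c, the catalytic domain of the H3K27 demethylase JMJD3. Trimethylated histone H3 lysine 27 (H3K27me3) and lysine 4 (H3K4me3) were each profiled in untreated cells (−Dox) and in cells given Dox at 1 µg/ml (+Dox) and collected on day 3. Each mark and condition had 1 library. All 4 libraries come from cells that carry both the transgene and the reverse Tet-transactivator, so the −Dox cells are untreated carriers and not the parental line. The transgene was integrated with piggyBac and selected with puromycin, and the number of clones behind the libraries is not given in the sources used here. Without replicate libraries no difference between −Dox and +Dox was tested, and an effect of Dox cannot be told apart from variation between libraries.

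ZNF genes encode proteins with arrays of C2H2 zinc fingers, small zinc-binding loops that read DNA sequence. Many also carry a Krüppel-associated box (KRAB), a short domain through which the protein recruits the corepressor KAP1 and its associated H3K9 methyltransferase, and KRAB genes are known for silencing transposable elements in embryonic stem cells. They lie in tandem clusters, with the largest ones on chromosome 19. A smaller set of ZNF genes without a KRAB box encodes regulators of development. H3K4me3 marks active or poised promoters, H3K27me3 marks promoters held by Polycomb, and promoters with both marks are called bivalent.

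The names were checked against the proteins the genes encode. A coding transcript was found for 492 of the 504 genes, and its translation held a median of 10 C2H2 fingers and at most 36. By this pattern 28 members had under 2 fingers and 14 had none, among them ZNF503, ZNF703, ZNF365 and ZNF750, so their place among the members rests on the name. A KRAB box was found by sequence pattern in 313 members and not in 179. Members said here to lack a KRAB box are those in which the pattern found none, and it may miss some. Of the members with a known chromosome, 245 lay on chromosome 19 and 252 elsewhere. The identity of the cells was checked on promoter H3K4me3 in −Dox. Of 12 embryonic stem cell marker promoters 11 stood above 20, beside 63.7% of all promoters. Of 6 markers of other lineages 2 did, COL1A1 and THY1, both without H3K27me3 above 20, while AFP, ALB, MYOG and PTPRC did not. As most promoters carry the mark, this is a weak check of identity. The exception among the stem cell markers was POU5F1, at 5.41.

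A genomic position could be given to 462 of the 504 promoters (GRCh37, the hg19 assembly). The sequences that follow run from 250 bases before the deposited transcription start to the first 30 transcribed bases, 5′ to 3′ on the strand of the gene, and cover the start of each gene and the flank before it. The first pair are bivalent promoters of developmental regulators, shown for their CpG content, and their CpG dinucleotides are in capitals.
ZNF503 (chr10:77161493-77161772, minus strand): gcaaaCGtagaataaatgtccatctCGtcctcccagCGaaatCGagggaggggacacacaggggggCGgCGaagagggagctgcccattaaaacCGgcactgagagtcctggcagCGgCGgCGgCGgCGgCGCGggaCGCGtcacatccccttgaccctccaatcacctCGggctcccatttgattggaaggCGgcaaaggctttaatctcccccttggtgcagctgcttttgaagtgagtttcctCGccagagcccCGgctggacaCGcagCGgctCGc
ZNF521 (chr18:22932101-22932380, minus strand): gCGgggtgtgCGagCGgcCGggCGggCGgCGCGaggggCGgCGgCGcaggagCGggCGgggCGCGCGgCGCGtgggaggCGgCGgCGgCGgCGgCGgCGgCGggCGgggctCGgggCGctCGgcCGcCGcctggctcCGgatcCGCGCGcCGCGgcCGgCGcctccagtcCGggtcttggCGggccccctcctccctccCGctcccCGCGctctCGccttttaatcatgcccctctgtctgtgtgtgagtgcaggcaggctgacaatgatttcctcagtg
The next 3 belong to KRAB genes. ZNF91, ZNF141 and ZNF808 are marked by H3K4me3 and hold the letters CCGGAAG, the core of ETS-type binding motifs, or the reverse complement CTTCCGG, which are in capitals.
ZNF91 (chr19:23578244-23578523, minus strand): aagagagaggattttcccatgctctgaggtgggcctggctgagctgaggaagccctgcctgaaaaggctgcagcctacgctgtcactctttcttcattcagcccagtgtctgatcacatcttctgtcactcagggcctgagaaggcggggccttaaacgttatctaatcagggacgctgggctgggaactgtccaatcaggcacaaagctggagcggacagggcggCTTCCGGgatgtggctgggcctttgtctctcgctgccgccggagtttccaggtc
ZNF141 (chr4:331373-331652, plus strand): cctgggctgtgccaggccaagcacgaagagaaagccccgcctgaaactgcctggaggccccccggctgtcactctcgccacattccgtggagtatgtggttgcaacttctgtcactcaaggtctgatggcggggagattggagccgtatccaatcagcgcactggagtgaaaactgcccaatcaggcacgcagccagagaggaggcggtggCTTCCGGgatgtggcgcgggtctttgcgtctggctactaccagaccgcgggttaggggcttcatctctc
ZNF808 (chr19:53030655-53030934, plus strand): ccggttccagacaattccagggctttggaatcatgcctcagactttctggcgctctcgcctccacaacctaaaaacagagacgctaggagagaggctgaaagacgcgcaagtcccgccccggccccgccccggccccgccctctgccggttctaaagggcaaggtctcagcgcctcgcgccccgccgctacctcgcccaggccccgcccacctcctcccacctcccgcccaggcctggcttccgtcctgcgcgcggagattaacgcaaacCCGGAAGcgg
ZNF503 held 23 CpG in these 280 bases and ZNF521 held 46. When 60 bases around the capitals of ZNF91 were set against ZNF141 at the best placement without gaps, 41 were identical, among them all 7 letters of the motif. Both promoters were printed for holding those letters, so identity there was no finding. ZNF808 was not compared.

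The deposited value of a promoter is ngs.plot coverage summed over 3 kb on each side of the start and scaled to library size, and following the study's rule a promoter was taken as marked where the value exceeded 20. The values of each library were whole multiples of a small step, from which 1 read was worth about 1.27, 1.25, 0.953 and 1.25 for H3K27me3 −Dox, H3K27me3 +Dox, H3K4me3 −Dox and H3K4me3 +Dox. The 4 libraries accordingly held about 2629351, 2682085, 3509244 and 2682085 reads, and the step was identical in the +Dox libraries of both marks. Whether these libraries held equal numbers of reads, or the scaling of 1 was used for the other, is not given in the sources used here. In the latter case the read number of 1 of them and every +Dox to −Dox ratio of that mark would be off by a common factor, which leaves the ratios with equal library totals as they are. The +Dox values of that mark would also shift against the threshold of 20, and the +Dox classes were not recomputed for that case. A value of 20 corresponds to 15.7 to 21.0 reads. The median ZNF promoter held about 5 H3K27me3 reads and 57 H3K4me3 reads in −Dox, so H3K27me3 of most ZNF promoters is known only to within a few reads. Intervals are 95%, and those of single and summed ratios cover counting error alone. Those of medians and shares rest on the spread over promoters within the same libraries. The reads carry no molecular identifiers, and windows that overlap share reads. The values are relative to library size, and the study's immunoblots showed less total H3K27me3 on day 3 of Dox. A ratio near 1 therefore does not show that the amount of the mark was kept, nor a higher ratio that it rose.

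H3K4me3 was the prevailing mark of ZNF promoters. In −Dox, 441 of 504 (87.5%) stood above 20, against 63.7% of all promoters and 63.1% of the promoters outside the family. In +Dox, 433 did (85.9%), against 62.7% of all. The median H3K4me3 value was 54.7 in −Dox and 55.5 in +Dox, beside 40.7 and 38.03 for other promoters. The distribution was also narrow, with the middle of the ZNF values between 36.7 and 73.0 in −Dox. ZNF promoters were therefore seldom unmarked by H3K4me3, but among the promoters above 20 they were not the highest: the H3K4me3-only ZNF promoters had a median of 57.7 and the H3K4me3-only promoters of other genes one of 67.0.

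**Figure D1:**
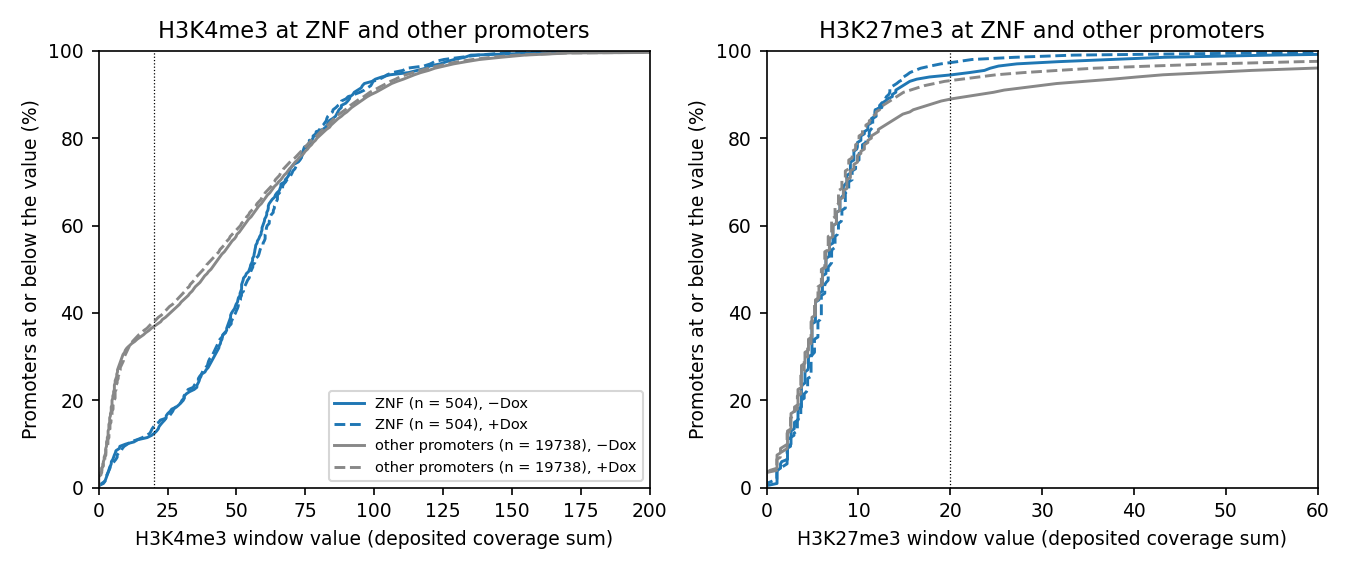
Cumulative share of promoters (vertical axis, %) at or below a window value (horizontal axis, deposited coverage sum) for H3K4me3 on the left and H3K27me3 on the right, with ZNF promoters in blue, other promoters in grey, −Dox solid and +Dox dashed. The dotted line marks 20. At that line 12.5% of ZNF and 36.9% of other promoters have been counted for H3K4me3 −Dox, and the H3K27me3 curves of ZNF promoters lie above those of the others at 20 in both conditions. The horizontal axes end at 200 and 60.

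H3K27me3 was at the level of most other promoters and rarely high. Its median over ZNF promoters was 6.47 in −Dox and 6.71 in +Dox, beside 6.09 and 5.97 for other promoters. Only 29 members (5.75%) exceeded 20 in −Dox, against 11.0% of all promoters, and 14 (2.78%) did in +Dox, against 6.73%. In −Dox, 25 members were bivalent (4.96%, with 9.42% of all promoters), 416 carried H3K4me3 only (82.5%, with 54.2%), 4 carried H3K27me3 only (0.794%, with 1.58%) and 59 were unmarked (11.7%, with 34.8%). The 90 promoters of genes with ZSCAN, ZKSCAN, ZBTB and ZFP names, which also encode C2H2 proteins, had H3K4me3 above 20 in 87.8% and H3K27me3 above 20 in 10%.

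The 29 members with H3K27me3 above 20 were mostly genes without a KRAB box, whose share was near that of all promoters. KRAB genes made up 8 of them (2.56% of 313 members) and genes without a KRAB box 19 (10.6% of 179), beside 11.0% of all promoters. The remaining 2 had no coding transcript to classify. None of the 206 KRAB promoters on chromosome 19 exceeded 20 in −Dox, whereas 8 of the 107 KRAB promoters elsewhere did (7.48%). Without a KRAB box the counts were 1 of 35 on chromosome 19 and 18 of 144 elsewhere (12.5%). On chromosome 19 as a whole 0.816% of ZNF promoters and 7.88% of other promoters were above 20, and on the other chromosomes 10.3% and 11.5%. Of the 29, 12 encode proteins with under 5 fingers, which is 16.2% of the 74 members of that kind. The share was 2% of the 100 members with 15 or more fingers and 11.0% of all promoters.

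The highest H3K27me3 values belonged to a pair of related developmental repressors. ZNF503 had 157 in −Dox and 141 in +Dox, with H3K4me3 of 85.2 and 79.0, and its H3K27me3 ratio of +Dox to −Dox was 0.897 (interval 0.691 to 1.17). ZNF703 had 135 and 84.3, with H3K4me3 of 94.3 and 98.8 and a ratio of 0.626 (0.457 to 0.861). The value of ZNF703 was lower in +Dox beyond counting error, and that of ZNF503 was not. ZNF536, a regulator of neuronal differentiation, had 73.0 and 44.4, with H3K4me3 of 46.7 and 57.0 and a ratio of 0.608 (0.396 to 0.956). All 3 remained bivalent in +Dox. With equal totals for both libraries the intervals of ZNF703 and ZNF536 took in 1.

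Next came ZNF436, the KRAB gene with the most H3K27me3. It had 68.1 in −Dox and 27.6 in +Dox, with H3K4me3 of 69.0 and 58.5 and a ratio of 0.405 (0.232 to 0.667). ZNF804A, a gene known from psychiatric genetics, carried H3K27me3 without H3K4me3, at 55.5 and 38.8 against 13.4 and 14.9, and stayed in that class (ratio 0.698, 0.422 to 1.12). Its paralogue ZNF804B had H3K27me3 of 49.8 and 29.5 and H3K4me3 of 28.5 and 19.4. The pair thus kept H3K27me3 above 20 in both conditions, and ZNF804B ended just below the H3K4me3 threshold. ZNF385B and ZNF385D, also paralogues, had 44.5 and 42.2 in −Dox and 19.4 and 14.9 in +Dox, while their H3K4me3 was 53.6 and 20.2 in −Dox and 60.4 and 22.4 in +Dox. Both left the bivalent class for H3K4me3 alone.

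The lowest ratio of the bivalent members was that of ZNF521, a stem cell and neural cofactor. Its H3K27me3 was 24.3 in −Dox and 2.24 in +Dox (ratio 0.0919, 0.0117 to 0.428), beside H3K4me3 of 96.3 and 118. ZNF518B, a partner of the H3K9 methyltransferase G9a, followed with 55.1 and 11.2 (ratio 0.203, 0.0879 to 0.427) at an H3K4me3 of 44.2 and 44.4. ZNF250 had 22.1 and 5.22, ZNF287 31.6 and 10.1, and ZNF704 31.9 and 10.8, and their ratios were 0.237, 0.319 and 0.338. In these 5 the interval lay below 1 while H3K4me3 remained above 20 in +Dox. ZNF521 and ZNF250 rested on few reads, about 19 and 17 in −Dox, and with 5 added to both values as a pseudocount their intervals took in 1.

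A pair of bivalent members had higher H3K27me3 values in +Dox. ZNF595 had H3K27me3 of 40.7 in −Dox and 64.9 in +Dox (ratio 1.59, 1.01 to 2.56), with H3K4me3 of 100.6 and 112, and it was the only 1 of the 29 whose interval lay above 1. With a pseudocount of 1 or 5 the interval took in 1. No position could be given to its deposited transcript, so the windows it overlaps and the copies of its sequence were not examined. ZNF512B had 25.1 and 33.6 (ratio 1.34, 0.715 to 2.49), within counting error of no difference.

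**Figure D2:**
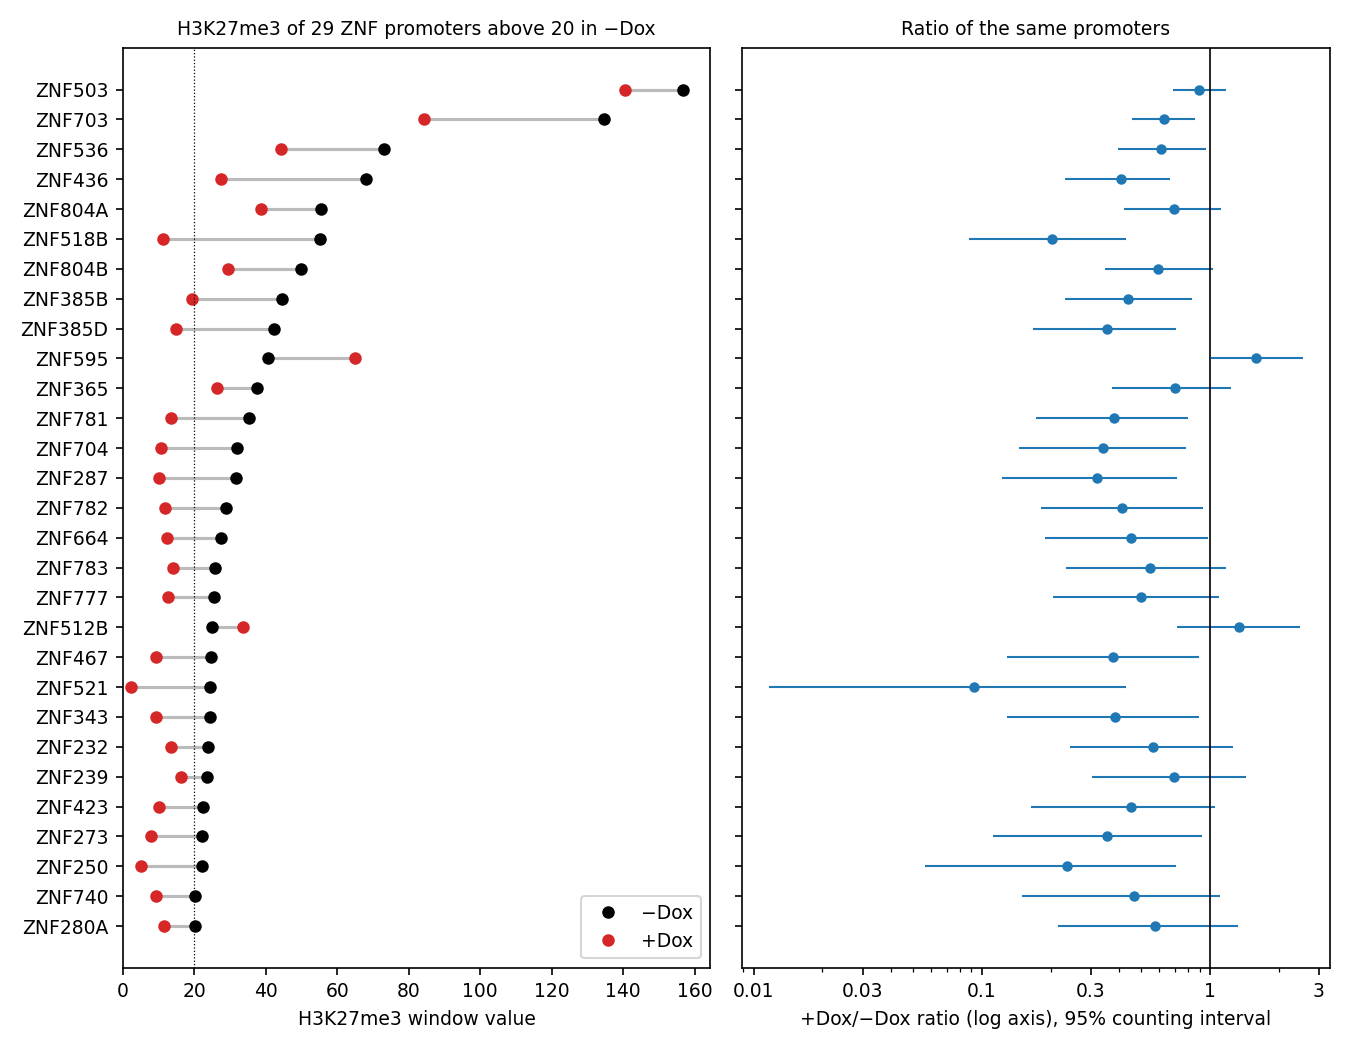
H3K27me3 window values of the 29 ZNF promoters above 20 in −Dox (left, −Dox black, +Dox red, dotted line at 20) and their +Dox to −Dox ratios with 95% counting intervals (right, log axis, vertical line at 1). ZNF503 keeps most of its value, ZNF521 has the lowest ratio, and ZNF595 and ZNF512B are the members to the right of 1.

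Counted over the 25 bivalent members, H3K27me3 had a median of 28.9 in −Dox and 13.4 in +Dox. The ratio was below 0.5 in 15 of 25 (60%), beside 40.8% of all bivalent promoters, and its interval lay below 1 in 14 (56.0%), beside 48.5%. H3K27me3 was still above 20 in 8 of the 25 (32.0%), beside 58.3%. Of the 25, 16 were H3K4me3-only in +Dox, 6 remained bivalent, 2 kept H3K27me3 alone and 1 was unmarked, whereas 51.4% of the other bivalent promoters remained bivalent. Of all 29 members above 20, 27 had a lower value in +Dox (93.1%, beside 85.9% of other promoters above 20 in −Dox). An interval below 1 was found in 16 (55.2%, beside 47.3% of all such promoters). With equal library totals 9 of these 16 intervals still lay below 1.

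The median log2 ratio of the bivalent ZNF promoters was −1.15 and that of other bivalent promoters −0.80, but their starting levels also differed, with a median of 28.9 against 43.4. Where the bivalent promoters were limited to −Dox values up to 60, the medians were −1.16 over 21 ZNF promoters and −0.99 over 1207 others. Their starting levels still differed, with medians of 25.9 and 31.9. The classes were set on the −Dox library, so the choice of promoters is not independent of this ratio. When the classes were taken from +Dox instead, the median log2 ratio over the 10 ZNF promoters then bivalent was 0.14, and that over 1017 others −0.47. A mean of both libraries of at least 20 favours neither library. Over promoters of any class that met it, the median log2 ratio was −0.87 for 17 ZNF promoters and −0.63 for 1776 others. Summed over the 25, H3K27me3 was 0.594 of its −Dox value (0.532 to 0.664), and over other bivalent promoters 0.714 (0.707 to 0.721). Scaled to the same total, these became 0.699 and 0.840.

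H3K4me3 of the same 25 promoters stayed close to its −Dox level. Its median was 47.9 in −Dox and 53.3 in +Dox, with a median log2 ratio of −0.04. No member had a ratio below 0.5 or above 2, and of other bivalent promoters only 4.36% and 0.16% did. The summed H3K4me3 ratio was 1.00 (0.927 to 1.08), against 0.902 (0.894 to 0.911) over other bivalent promoters.

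Over the whole family H3K27me3, relative to library size, was close to its −Dox level. Over the 500 members with a ratio, the median log2 ratio was −0.03, beside −0.15 for other promoters. A ratio below 0.5 was found in 17.2%, beside 21.5% of all promoters, and a ratio above 2 in 17.6%, beside 14.7%. At about 5 reads per promoter few of these ratios could be told from 1: the interval lay below 1 in 21 members (4.2%, beside 7.05%) and above 1 in 15 (3.00%, beside 1.59%). With equal library totals the median log2 ratio became 0.21, on the other side of 0.

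Relative to library size, the summed H3K27me3 of the KRAB promoters on chromosome 19 was slightly higher in +Dox. Summed over these 206 promoters, H3K27me3 was 1.16 of its −Dox value (1.07 to 1.26, about 1115 and 1325 reads). The KRAB promoters of other chromosomes gave 0.846 (0.755 to 0.940) and ZNF promoters without a KRAB box 0.819 (0.759 to 0.884). To set aside promoters with H3K27me3, H3K4me3-only promoters were compared, and on chromosome 19 the ratio was 1.16 (1.07 to 1.27) over 188 KRAB promoters and 1.01 (0.963 to 1.06) over 695 promoters of other genes. With equal library totals these sums gave 1.36 (1.26 to 1.49) for the 206 KRAB promoters of chromosome 19, 0.995 (0.888 to 1.11) for KRAB promoters elsewhere and 0.964 (0.893 to 1.04) without a KRAB box, so that the latter pair took in 1. Over the H3K4me3-only promoters of other genes on chromosome 19 the equal-total ratio was 1.19 (1.13 to 1.24), beside 1.36 (1.26 to 1.49) for the 188. The median log2 ratio over the 206 was 0.21, with an interval from the ranked promoters of −0.03 to 0.39, which took in no difference. That interval treats promoters of 1 library pair as independent, so it describes their spread and not a difference between conditions. Of the 187 with a position, 36 have a window that overlaps that of another listed start, so the sums may count some reads more than once. The level was low in both conditions, with a median of 6.47 in −Dox and 7.46 in +Dox. Whether this slight difference would recur in other libraries was not tested.

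In +Dox, 5 members stood above 20 in H3K27me3 that did not in −Dox. By −Dox class, 4 were H3K4me3-only (0.962% of that class, beside 0.350% of other H3K4me3-only promoters). The remaining 1 was unmarked (1.69% of that class, beside 0.516% of other unmarked promoters). ZNF540 had 8.37 and 20.1 (ratio 2.41), ZNF263 13.7 and 24.6 (1.80), ZNF155 12.9 and 21.6 (1.67), ZNF841 15.6 and 22.4, and ZNF432 17.1 and 22.4. All but ZNF263 lie on chromosome 19 and had a KRAB box by the sequence pattern. Each of the 5 intervals took in 1, although with equal library totals that of ZNF540 lay above 1. ZNF263 also had a lower H3K4me3 in +Dox, with values of 46.4 and 27.96.

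H3K4me3 was nearly the same in both conditions. The median log2 ratio over ZNF promoters was 0.01, beside −0.03 for other promoters. A ratio below 0.5 occurred in 1.4% (beside 5.33% of all promoters) and above 2 in 2.20% (beside 6.09%), and the interval lay below 1 in 9 members (1.80%, beside 3.05%) and above 1 in 6 (1.20%, beside 1.80%). Of the 504, 429 were above 20 in both conditions, 59 in neither, 12 in −Dox only and 4 in +Dox only. Among the H3K4me3-only members 403 of 416 kept that class (96.9%, beside 97.6% of other H3K4me3-only promoters).

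Few members differed much in H3K4me3 among those with a mean value of at least 20. ZNF618 had 13.1 in −Dox and 30.6 in +Dox (ratio 2.33, 1.17 to 4.86) and ZNF235, a KRAB gene, 29.6 and 67.9 (2.29, 1.44 to 3.67). With a pseudocount of 5 the interval of ZNF618 took in 1. These were followed by ZNF746 (1.60, 1.06 to 2.39) and by ZNF560 (1.60, 0.932 to 2.76), whose interval took in 1, as did that of ZNF746 after scaling to the promoters of low value. At the other end, ZNF638 had 43.6 and 20.1 (0.462, 0.240 to 0.819). The ratios of ZNF34, ZNF707 and ZNF263 were 0.576, 0.585 and 0.602, and the interval of ZNF263 took in 1 with equal library totals and with a pseudocount of 1 or 5. Scaling to the promoters of low value moved the median log2 H3K4me3 ratio of ZNF promoters from 0.01 to −0.16, so its sign is not settled by these data.

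**Figure D3:**
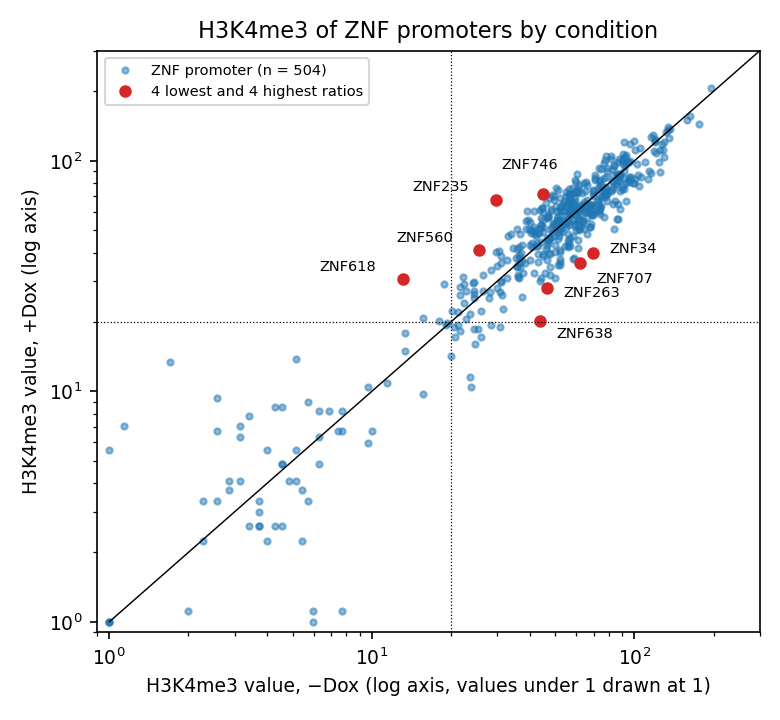
H3K4me3 window value of each of the 504 ZNF promoters in −Dox (horizontal, log axis) and +Dox (vertical, log axis), with values under 1 drawn at 1, the diagonal as a line and dotted lines at 20. The named red points are the 4 lowest and 4 highest ratios among members with a mean of at least 20, and most points above 20 lie close to the diagonal.

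The highest H3K4me3 belonged to ZNF462, a regulator of embryonic development, with 195 in −Dox and 207 in +Dox and H3K27me3 of 7.99 and 10.1. ZNF850 followed with 176 and 145. ZNF668 had 162 and 156 and ZNF646 158 and 150, but their starts are 182 bp apart and their windows count mostly the same reads. ZNF398 likewise lies 92 bp from ZNF425. Members with a start on the opposite strand within 1 kb had more H3K4me3, with a median of 83.4 over 44 members against 52.4 over the 418 without, and the windows of such members take in that other start as well.

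Known repressors of transposable elements carried H3K4me3. H3K4me3 exceeded 20 in 9 of the 10 listed, beside 63.7% of all promoters and 87.5% of the family. H3K27me3 exceeded 20 in none in either condition, beside 11.0% of all promoters in −Dox and 6.73% in +Dox. ZNF91, which silences SVA and L1 elements, had H3K4me3 of 67.8 and 61.1 and ZNF93, which silences L1 elements, 76.7 and 83.9. ZNF141 reached 129 and 120, ZNF649 99.5 and 122, ZNF808 61.3 and 78.3, and ZNF765 21.7 and 26.1. The exception was ZNF417, at 3.70 and 2.61, with a deposited start 4425 bp away from the canonical start, while its paralogue ZNF587 had 41.9 and 48.1. ZNF10 and ZNF268, whose genes lie in the chromosome 12 cluster, had 73.8 and 73.0 in −Dox and 82.8 and 76.4 in +Dox.

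The imprinting factor ZNF445 and the imprinted genes ZNF331 and ZNF597 were H3K4me3-only in both conditions, with 45.0, 76.7 and 35.9 in −Dox and 39.5, 57.0 and 32.1 in +Dox. General promoter and pluripotency-network factors were likewise marked, with H3K4me3 above 20 in 8 of 9 (88.9%, beside 63.7% of all promoters and 87.5% of the family), from 46.4 for ZNF263 to 125 for ZNF207 in −Dox. ZNF143, a promoter-binding activator, had 95.2 and 82.4, and ZNF281 had 105 and 114. ZNF217 was the exception at 6.27 and 8.20, also with a start away from the canonical one, by 16068 bp.

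Developmental and neural regulators formed the contrast to these lists. H3K4me3 exceeded 20 in 12 of 18 in −Dox (66.7%, beside 63.7% of all promoters). H3K27me3 did in 9 of 18 in −Dox (50.0%, beside 11.0%) and in 5 in +Dox (27.8%, beside 6.73%), and 8 were bivalent in −Dox (44.4%, beside 9.42%). The list's median H3K27me3 was 15.2 in −Dox and 10.1 in +Dox, and its summed H3K27me3 ratio 0.685 (0.599 to 0.792). ZNF423, a cofactor in neural and fat cell development, had H3K27me3 of 22.4 and 10.1 beside H3K4me3 of 135 and 125, and ZNF365 had 37.7 and 26.5 beside 24.5 and 27.2. Others of the list had no H3K27me3 above 20, such as ZNF608 with H3K4me3 of 82.6 and 86.5, ZNF335 with 56.7 and 69.7 and ZNF488 with 40.7 and 42.1. ZNF366, ZNF609, ZNF750 and ZNF469 were unmarked in both conditions. The lists were made with earlier results of these data known, so their counts are a description.

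ZNF promoters within gene clusters carried H3K4me3 somewhat more often than those outside. Runs of at least 5 ZNF starts with gaps of at most 250 kb gave 21 clusters with 255 members, and 13 of the clusters lie on chromosome 19. Within clusters 91.8% of ZNF promoters had H3K4me3 above 20 in −Dox, against 83.6% of the 207 ZNF promoters outside them and 67.1% of the 85 other promoters inside them. H3K27me3 above 20 was found in 5 clustered members (1.96%) and in 21 unclustered ones (10.1%), beside 11.0% of all promoters.

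The cluster from ZNF100 to ZNF91 (chr19:21950381-23578273 by the starts, GRCh37) stood lowest. Its 13 promoters had a median H3K4me3 of 30.8 in −Dox and 19.02 in +Dox, and 8 of 13 (61.5%) exceeded 20 in −Dox, close to the 63.7% of all promoters. The cluster held both marked and unmarked promoters. ZNF100, ZNF43, ZNF208, ZNF730, ZNF724P and ZNF91 had −Dox values of 50.7, 48.4, 59.0, 74.4, 78.7 and 67.8, and ZNF257 and ZNF492 intermediate ones of 30.8 and 25.9. ZNF676, ZNF729, ZNF98, ZNF99 and ZNF728 were unmarked, at 3.42, 0, 3.42, 5.41 and 4.56. The neighbouring cluster from ZNF737 to ZNF429 had 11 of 11 above 20.

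The letters CCGGAAG, on either strand, divided this cluster along nearly the same line. They were present at 9 of the 13 starts, of which 8 had H3K4me3 above 20, and absent at 4, of which 0 did. The exception with the letters but without H3K4me3 was ZNF728. This division was noticed after the values were seen and has no test. Relative to library size, H3K27me3 summed over the cluster was higher in +Dox. Its ratio was 1.68 (1.19 to 2.29) from about 62 and 104 reads, though no member exceeded 20. Its summed H3K4me3 was close to equal, with a ratio of 1.03 (0.898 to 1.18).

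**Figure D4:**
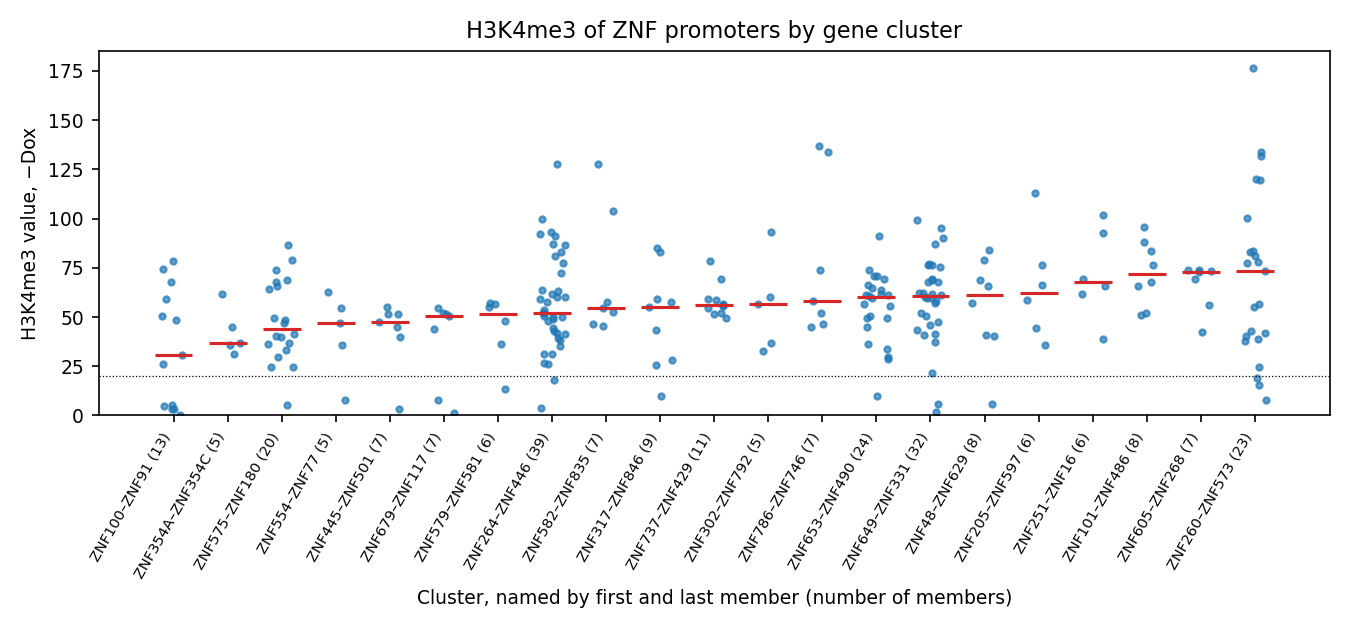
H3K4me3 window value in −Dox (vertical axis) of each ZNF promoter in the 21 gene clusters, named by their first and last member with the number of members. Points are promoters spread sideways for visibility, red lines are cluster medians and the dotted line marks 20. The cluster from ZNF100 to ZNF91 has the lowest median, 30.8, and 5 points near 0.

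Base composition did not set ZNF promoters apart in the median, at 19 CpG per 280 bases for both ZNF and other promoters. The relation of CpG to H3K4me3 differed in value between them, however. With 0 to 4 CpG, 42.1% of 38 ZNF promoters had H3K4me3 above 20 in −Dox, against 10.8% of 3586 others, and with 5 to 9 CpG 82.9% of 35 against 28.4% of 2126. With 10 to 19 CpG the shares were 93.2% of 161 ZNF promoters and 72.5% of 3307 others. From 20 to 29 CpG they were 91.4% and 90.7%, and with 30 or more 96.1% and 94.2%. For H3K27me3 the order was the other way in CpG-rich promoters, where 10.4% of ZNF promoters with 30 or more CpG exceeded 20 against 16.8% of others, and with 10 to 19 CpG 1.86% against 12.8%.

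Of 6 sequences searched on both strands in the same 280 bases, CCGGAAG differed most between ZNF promoters and others. It was held by 34.0% of 462 ZNF promoters, against 11.98% of 17782 others and 12.5% of all, and by 38.4% of those of KRAB genes. Among other promoters with H3K4me3 above 20 the share was 16.8%. CCAAT, the core of NF-Y motifs, was held by 44.6% against 34.0%, and TGCGCA, a core of NRF1 motifs, by 17.3% against 9.34%. TATAAA was rarer, at 3.68% against 9.94%. ATGGCGG, a YY1 core, was held by 5.63% and 5.59%, and ACTACAA, a part of the ZNF143 motif, by 4.76% and 2.93%. Shares of all promoters for these 5 were 34.3%, 9.54%, 9.78%, 5.59% and 2.98%, in the order given. In the RefSeq promoter windows (GRCh38.p14) CCGGAAG was held by 40.3% of ZNF and 13.5% of other promoters. Members that hold CCGGAAG had H3K4me3 above 20 in 94.3% of 157 and those without in 84.9% of 305, while the shares among other promoters were 90.4% of 2131 and 61.1% of 15651. Related genes can share promoter sequence, as ZNF91 and ZNF141 above do, so these promoters are not independent of each other.

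**Figure D5:**
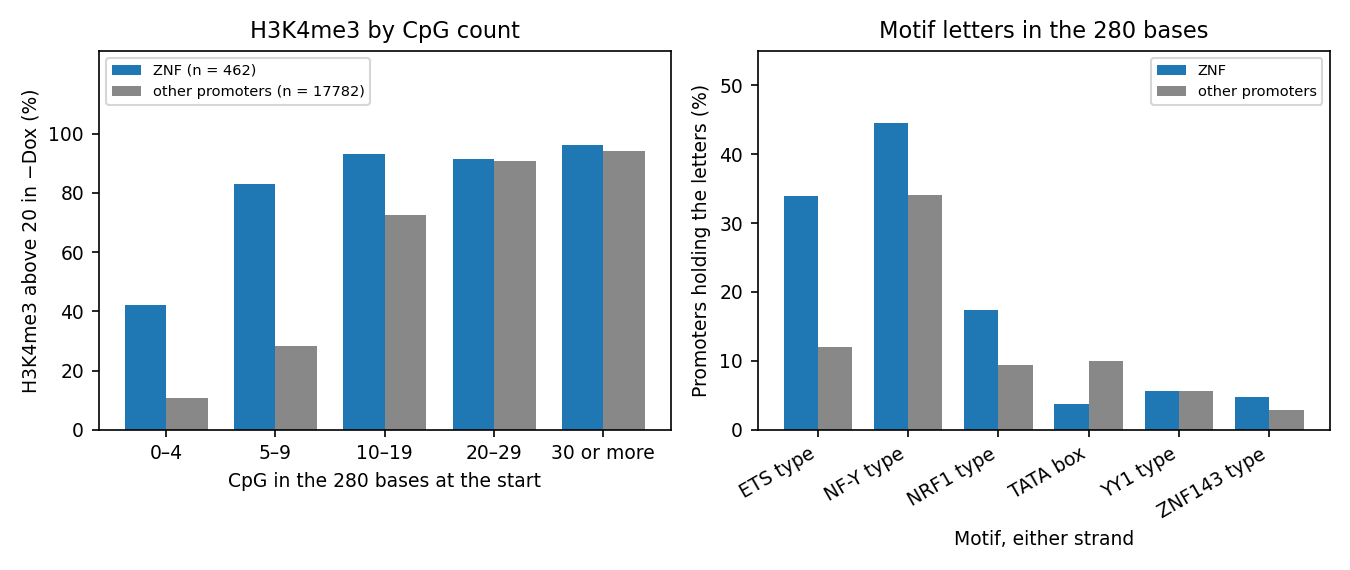
Left, share of promoters with H3K4me3 above 20 in −Dox (vertical axis, %) by the number of CpG in the 280 bases at the start, for ZNF promoters in blue and other promoters in grey. Right, share of promoters (vertical axis, %) that hold each of 6 motif cores on either strand. The ZNF bars are higher in each CpG group, with wide gaps below 20 CpG and narrow ones from 20 on. They are also higher for the ETS, NF-Y and NRF1 types, and lower for the TATA box.

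The 59 unmarked members were of mixed kinds. By pattern, KRAB genes were 34 of them and 21 lay on chromosome 19. The deposited start lay over 3 kb from the canonical one in 17, and over all ZNF promoters with such a start 67.2% of 58 had H3K4me3 above 20, against 90.3% of the 361 whose start lay within 100 bp. A further 8 had no position, and 33 had a start within 100 bp of the canonical one. Windows with many exact copies elsewhere were few: 9 members had over 20% of their 150-base starts repeated, among them ZNF26, ZNF84 and ZNF140 at 100%. Exact copies of these 3 were found on an unplaced scaffold of the GRCh37 assembly, and their H3K4me3 was 74.1, 69.2 and 55.9 in −Dox. How reads with several equally good matches were counted is not given in the sources used here, so values of such near-identical members are uncertain.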

How the data were processed

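H3K27me3 and H3K4me3 ChIP-seq libraries of JMJD3c-hESCs, 1 for each mark in −Dox and in +Dox, were analysed. According to the methods of the study and the submitters' processing notes (CASAVA 1.4, Bowtie2, hg19), 150-base single-end MiSeq reads were mapped to hg19 and mitochondrial reads were removed. The deposited signal values are ngs.plot coverage, taken by the authors within 3 kb of the start site and scaled to library size. The study normalized its profiles to the region after the transcription end, and whether the deposited values include this step is not given in the sources used here.

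From these values the share of promoters above 20, the classes, and the plain ratio of +Dox to −Dox were computed for ZNF promoters, other promoters and all promoters. With 1 library per group no p-value was computed. Values of each library were whole multiples of a step (100% within 0.01 of a whole number), and 1 read spans about 3.34 steps in a window, estimated over the 4 libraries together. Intervals of ratios are exact binomial (Clopper-Pearson) at 95% on the approximate reads and were tested on simulated data. Those of shares are Wilson intervals and those of medians come from the ranked promoters, also at 95%. Positions came from GENCODE release 44 mapped to GRCh37 by transcript identifier (18244 of 20242 rows). Fingers and KRAB boxes (at least 9 of 14 fixed positions) were counted in translations of the longest GENCODE coding transcript, and motifs in GRCh37 at the deposited start, in place of RefSeq proteins and promoters.

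Members were named by fixed rules: the members of 4 role lists, the 10 highest in −Dox H3K27me3, the 6 lowest and 4 highest H3K27me3 ratios among bivalent members, the 5 highest in −Dox H3K4me3, the 4 lowest and 4 highest H3K4me3 ratios at a mean of at least 20, and the 4 highest H3K27me3 ratios among those above 20 in +Dox. ZNF841, ZNF432, ZNF425, ZNF26, ZNF84, ZNF140, the members printed by sequence and those of the cluster from ZNF100 to ZNF91 were named after their values were seen. The members, lists and rules were chosen with earlier results of these data known. Other scalings, pseudocounts, thresholds, filters and sets of rows were tried. Python 3.11.15, pandas 2.3.3, SciPy 1.17.1, Matplotlib 3.10.9 and samtools 1.23.1 were used.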

Additional observations from a re-analysis of the deposited data

How the results depend on the processing

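No paired analysis was possible because each mark and condition has 1 library. Of 137 recomputed summary values of 17 results, 112 lay inside the 95% interval of the reported value. They include the setting of 1 promoter per symbol, which changed no value. The intervals of these shares and medians treat promoters as independent and cover neither counting error nor variation between libraries. All 160 recomputed values of 40 single-member ratios lay inside, but those intervals are wide. With equal library totals 9 of the 40 intervals changed in whether they took in 1. With equal library totals the median log2 ratio of ZNF promoters became 0.21 for H3K27me3 and 0.041 for H3K4me3, that of KRAB promoters on chromosome 19 became 0.45 for H3K27me3, the median −Dox H3K27me3 value 5.98, and the shares with an H3K27me3 ratio below 0.5 and above 2 became 10.8% and 23.8%. Scaling +Dox to a median ratio of 1 over promoters of low value gave a median log2 H3K4me3 ratio of −0.16. A threshold of 30 gave shares of 80.2% for H3K4me3, 2.78% for H3K27me3 and 1.59% bivalent, and a threshold of 10 gave 20.8% for H3K27me3 and 19.4% bivalent. Starts within 3 kb of the canonical one, an alternative chosen after seeing the data like those on KRAB promoters of chromosome 19 and on promoters with under 10 CpG, gave 91.2% for H3K4me3.

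Shares of extreme ratios moved with the treatment of low values. With a pseudocount of 1 the shares with an H3K27me3 ratio below 0.5 and above 2 were 11.9% and 14.3%, and with 5 they were 4.37% and 3.97%. With a mean of at least 10 they were 22.1% and 9.62%, and the median log2 H3K27me3 ratio was −0.36. For H3K4me3 the shares were 0.397% and 0.595% with a pseudocount of 5, and 0.662% and 0.442% with a mean of at least 10. Classes taken from +Dox reversed the median log2 H3K27me3 ratio of bivalent ZNF promoters to 0.14, since they choose promoters by the other library. Leaving out overlapping windows or repeated sequence moved none of the planned results recomputed with them beyond its interval. Keeping 1 promoter per symbol left each value recomputed with it unchanged, so that setting is no check of the results. For the results on KRAB promoters of chromosome 19 and on under 10 CpG, of these settings only the one without overlapping windows was run. Depth limits H3K27me3 most, at a median of about 5 reads per ZNF promoter.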
